A study of Homo sapiens with 12 samples.

Results

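Compact early replicating regions were taken as the short stretches of DNA that were labelled with EdU in all 4 conditions of the series and were called as 1 unbroken region in each. They were found by merging the overlapping or touching regions of the 4 deposited lists, 1 list per condition, on the 22 autosomes. Kept were the merged regions that held exactly 1 region of every list and were over 2 kb and under 60 kb wide, which left 600 of 4886 autosomal merged regions (12.3%). A region of every list was present in 2932 merged regions, and 2061 of these held exactly 1 of each. Besides the 600 compact regions, the 2061 contain 1407 regions of 60 kb or more, called wide regions here, and 54 of 2 kb or less. The members were thus chosen by the presence, number and width of the called regions, so values of width are given below as a description.

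The cells were U2OS-MycER, a human osteosarcoma line with a fusion of Myc and the estrogen receptor that is switched on by 4-hydroxytamoxifen (OHT). All 4 groups carried a hairpin RNA induced with doxycycline (1 µg/mL), which was non-targeting (shNT) or aimed at the mRNA of CDK12 (shCDK12), a kinase that acts on RNA polymerase II during transcription, and the groups marked + OHT had received 300 nM OHT for 40 h. Mitotic cells were shaken off after nocodazole (100 ng/mL, 8 h) and released for 24 h into 25 µM EdU and 2 mM hydroxyurea. The labels give 3 samples for each of shNT, shNT + OHT, shCDK12 and shCDK12 + OHT, but the region lists were made from merged replicates, so no difference below has a replicate check and none was tested. How many hairpins were used per target, and how far CDK12 fell, was not analysed here.

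Replication starts at origins that fire in an order through S phase, and the earliest of them lie mostly in open, transcribed chromatin. EdU is a thymidine analogue that enters new DNA, and hydroxyurea depletes nucleotides, so that forks stall and the label stays near the origins that fired first. A called region is therefore taken here as a zone of early synthesis, which was not checked for single regions. A wide zone can hold several origins, and a compact one has room for fewer. Myc drives cells into S phase and is known to change where and when origins fire.

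The compact regions made up 15.8% of the autosomal regions called in shNT and 13.2% in shNT + OHT, with 12.5% in shCDK12 and 12.8% in shCDK12 + OHT. They were short, so they covered only 20.5, 19.8, 18.4 and 20.3 Mb in the same order, which was 3.72% to 4.64% of each list's autosomal length. The deposited read counts inside them summed to 714538, 1708648, 594889 and 1197427, or 3.42% to 4.50% of the reads in autosomal regions (17261176, 49994993, 13220717 and 28573223). Library totals were not used here, and the lists differ in their sums of reads, so reads per kb are compared between conditions only after centring on the 2061 regions.

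The merged width of the compact regions had a median of 44.6 kb, with quartiles of 32.3 and 52.5 kb and a range of 2.4 to 59.6 kb. Most lay near the upper limit. There were 209 of 50 kb or more, 161 from 40 to under 50 kb, 96 from 30 to under 40 kb, 45 from 20 to under 30 kb, 30 from 10 to under 20 kb and 59 under 10 kb. Wide regions numbered 1407, and no gap in width separated them from the compact ones. The widest region inside the limit was chr9:68380401-68440000 (hg19, as for every position here), 59.6 kb wide with 802 reads in shNT and 1956 in shNT + OHT, with 1146 in shCDK12 and 3438 in shCDK12 + OHT. Just outside lay chr11:61014001-61074000, 60 kb wide, with 734, 2888, 1027 and 1663 reads. At the lower limit chr11:77595601-77598000 was inside with 2.4 kb and 107, 213, 102 and 134 reads, and chr16:34021201-34023200 was outside with 2 kb and 157, 405, 159 and 383 reads.

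All 600 compact regions had a stretch that was called in all 4 lists, which the rule that chose them makes likely. Its length had a median of 27.6 kb and a range of 0.4 to 56.8 kb. Over the regions the median share of the merged width in this stretch was 67.2%. Within a list the median width was 37.2 kb in shNT and 36.4 kb in shNT + OHT, with 32.2 kb in shCDK12 and 36.4 kb in shCDK12 + OHT. The region nearest to the medians of width and read density was chr9:32985601-33030800, called over 44, 44.8, 38.4 and 42 kb in the 4 lists, with 697, 2304, 664 and 1982 reads. Its right limit was nearly the same in all of them and its left limit moved. Width differed by at most 1.5-fold between all lists in 377 regions and by over 4-fold in 34, of which 22 were under 10 kb.

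The shCDK12 list held the narrowest version of a compact region most often. It was narrowest, ties included, at 272 of 600 regions, against 133 for shNT, 180 for shNT + OHT and 178 for shCDK12 + OHT. The widest version came from shCDK12 + OHT at 227, from shNT at 224, from shNT + OHT at 152 and from shCDK12 at 115. Both counts were made in the compact regions only. Among wide regions, too, the smallest median width was that of the shCDK12 list, at 83.2 kb, and the other lists ranged from 88 to 98.4 kb. Without OHT, 60.3% of the compact regions and 61.2% of the 2061 were narrower in shCDK12 than in shNT. In 23 regions all limits were the same in the 4 lists. These were short, with a median of 7.6 kb, and the longest of them was chr20:29804001-29833200 (29.2 kb), which had 1010 reads in shNT and 2214 in shNT + OHT, with 788 in shCDK12 and 1895 in shCDK12 + OHT.

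**Figure D1:**
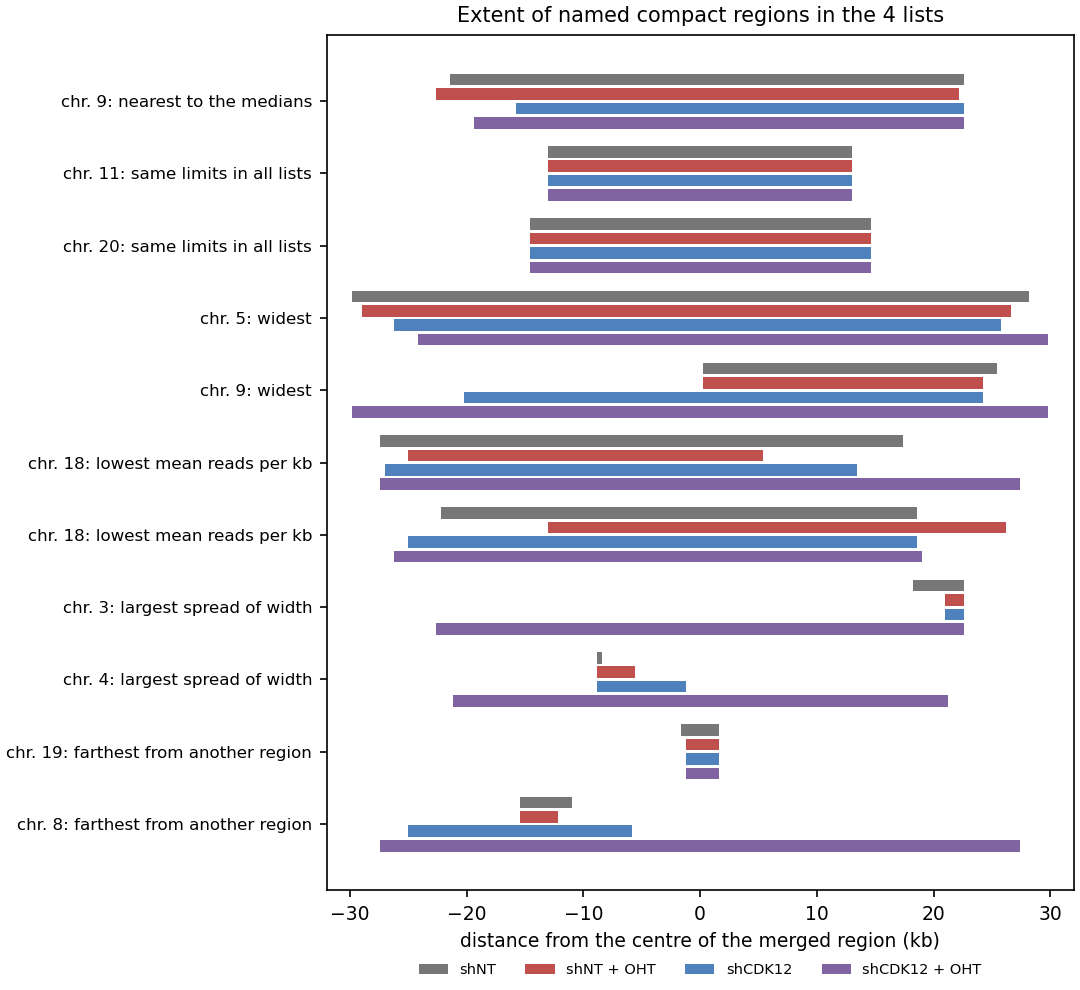
Extent of 11 compact regions, named by their chromosome and by the rule that chose them, in each of the 4 lists, drawn as distance in kb from the centre of the merged region. The regions on chromosomes 11 and 20 have the same limits in all lists, and those on chromosomes 3, 4 and 8 span up to 54.8 kb in shCDK12 + OHT and a few kb or less in shNT.

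At the other end were regions that were long in 1 list and a few windows of 400 bp in another. The largest spread was at chr4:76794801-76837200, called over 0.4 kb in shNT and 3.2 kb in shNT + OHT, with 7.6 kb in shCDK12 and 42.4 kb in shCDK12 + OHT. Next came chr3:73116001-73161200, with 4.4, 1.6, 1.6 and 45.2 kb in the same order. In both, shCDK12 + OHT held the only long version of the region. A width under 1 kb occurred in 14 regions of shNT and 22 of shNT + OHT, with 10 in shCDK12 and 8 in shCDK12 + OHT.

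Read density, the deposited count divided by the region's width in that list, was lower in compact than in wide regions in every list. The median compact region had 20.7 reads per kb in shNT (quartiles 16.2 and 30.3) and 54.1 in shNT + OHT (43.0 and 77.0), with 17.9 in shCDK12 (13.9 and 26.0) and 34.1 in shCDK12 + OHT (28.4 and 48.9). Wide regions had medians of 25.2, 69.2, 20.8 and 41.1. Ranked within its own list, the median compact region stood at the 44.3rd, 52.0th, 52.7th and 52.7th percentile of read density, and the median wide region at the 57.2nd, 65.3rd, 62.6th and 65.0th. Compact regions thus stood near the middle of their lists, and wide ones above it.

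**Figure D2:**
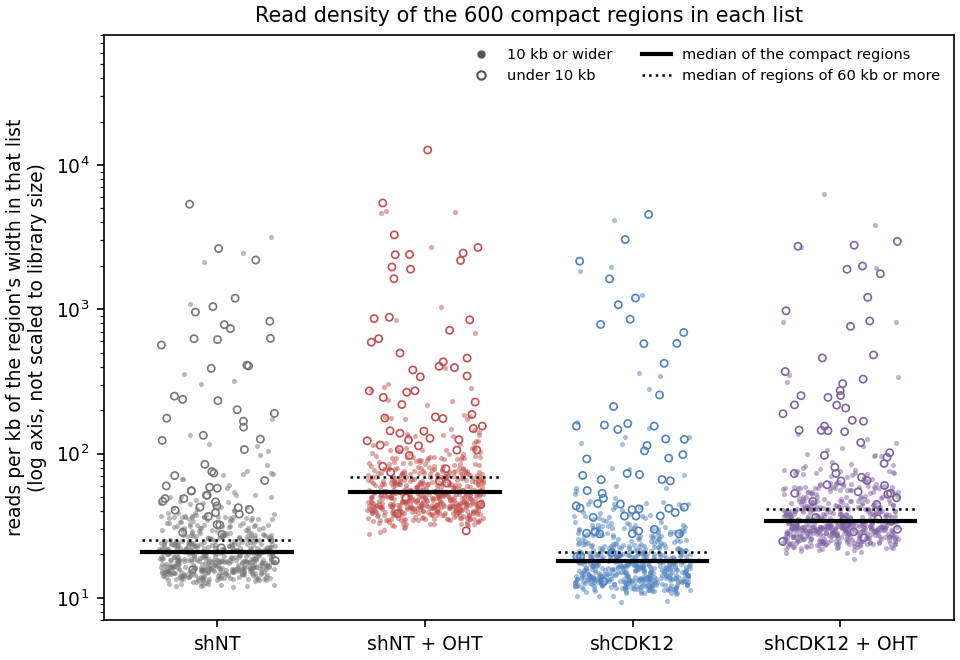
Reads per kb of the 600 compact regions in the 4 lists, 1 point per region, on a log axis and not scaled to library size. Filled points are regions of 10 kb or more and open points the 59 under 10 kb. Solid bars mark the median of the compact regions (20.7, 54.1, 17.9 and 34.1) and dotted bars that of regions of 60 kb or more, which is higher in every list.

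Density was higher in short than in long compact regions, which were split here at 10 kb after the values were seen. The 541 regions of 10 kb or more had median densities of 19.6 reads per kb in shNT and 51.6 in shNT + OHT, with 16.9 in shCDK12 and 32.9 in shCDK12 + OHT. The 59 under 10 kb had 75, 228, 66.1 and 142, which placed their median at the 94.1st to 97.3rd percentile of the lists. Among regions of 10 kb or more, density followed width weakly, with Spearman correlations of −0.04, 0.09, −0.05 and −0.15 across regions in the 4 lists. Density is a count over a called width, so these points share their library and the denominator. Every compact region also had to be called in all 4 lists. Whether the calling itself asks for a higher density in short regions was not tested, so the difference by width is only a description.

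**Figure D3:**
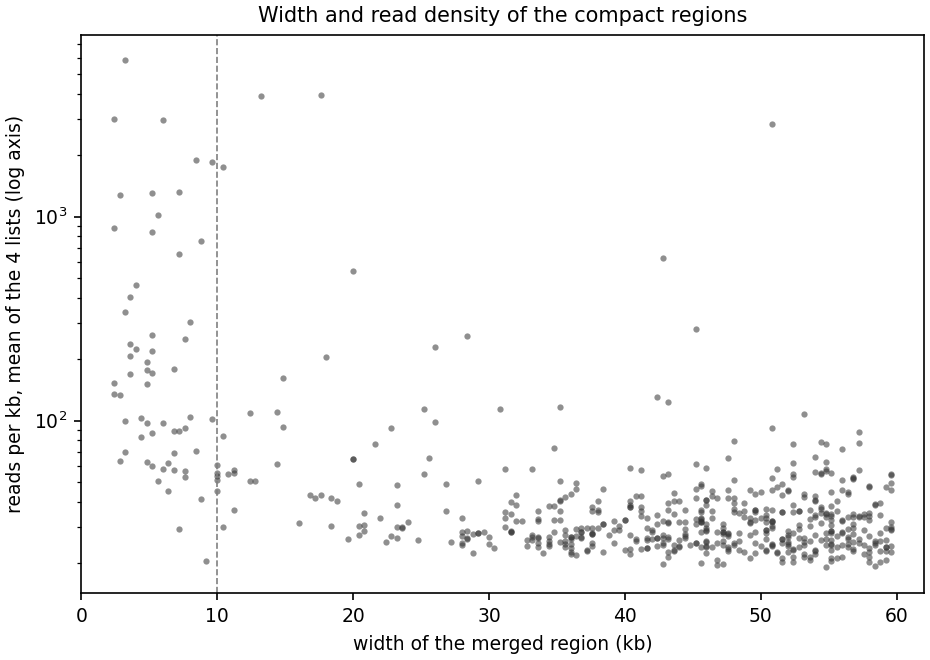
Width of each compact region in kb against its mean reads per kb over the 4 lists on a log axis, 1 point per region, with a dashed line at 10 kb. The 541 regions to the right form a mostly flat band with some regions above it, and most of the highest densities lie to the left of the line.

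The lowest mean density was at chr18:20244001-20298800, called over 44.8, 30.4, 40.4 and 54.8 kb in shNT, shNT + OHT, shCDK12 and shCDK12 + OHT, with 574, 945, 438 and 1169 reads. The next lowest was on the same chromosome, at chr18:45514401-45566800, with 533, 1396, 408 and 1026 reads over 40.8, 39.2, 43.6 and 45.2 kb. Both were among the longer compact regions. The highest mean density belonged to chr1:91852801-91856000, with 2139, 5083, 1816 and 2655 reads, called as 1 window of 0.4 kb in the first 3 lists and over 3.2 kb in shCDK12 + OHT. It was followed by chr1:121468001-121485600, with 22810, 50993, 29926 and 67107 reads over 7.2, 10.8, 7.2 and 17.6 kb.

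A small number of regions held much of the signal. In 15 compact regions (2.5%) the density was over 10 times the compact regions' median in every list, a limit set after the values were seen. They held 34.0% of all reads of compact regions in shNT and 30.2% in shNT + OHT, with 38.5% in shCDK12 and 34.7% in shCDK12 + OHT. Of these, 9 were under 10 kb. What sequence they hold was not analysed here, since the annotation at hand is of another genome build.

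Several of these 15 regions departed from the other compact regions in how their reads differed between conditions. Over all compact regions the median fold of reads with OHT was 2.53 in shNT and 2.14 in shCDK12 cells, and shCDK12 held 0.816 times the reads of shNT. Against this, 3 of the 15 had a lower fold in shNT and about 1 in shCDK12 cells. At chr1:564401-570400, called with the same limits in all lists, reads were 15814 in shNT and 19673 in shNT + OHT, with 18258 in shCDK12 and 17725 in shCDK12 + OHT, a fold of 1.24 in shNT and 0.971 in shCDK12 cells. At chr5:134256001-134264400 they were 7652, 11775, 10340 and 10370, and at chr17:11010001-11018800 5532, 7434, 6909 and 6703, with folds of 1.54 and 1.34 in shNT and of 1.00 and 0.970 in shCDK12 cells. Reads in the regions called on chromosome M, which is no member, also differed little between the lists, with 1587463, 1413690, 1576695 and 1698827. Whether the levels of these 3 regions share a source with it was not tested.

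Others of the 15 also had more reads in shCDK12 than in shNT, where the median compact region had fewer. At chr1:121468001-121485600 the fold was 1.31 without OHT and 1.32 with it. At chr18:18510801-18520400 reads were 10026, 22938, 11485 and 26695, which gave 1.15 and 1.16. At chr6:58769601-58780000 the reads of 6949, 17309, 8084 and 20238 gave 1.16 and 1.17, and at chr4:68264001-68266800 those of 2057, 4562, 2389 and 5303 gave 1.16 and 1.16. In all 4 of these the fold with OHT was nearly the same in both cell types, between 2.22-fold and 2.50-fold. In 3 more regions with more reads in shCDK12 it differed more, at 2.18-fold in shNT and 2.38-fold in shCDK12 cells for chr7:61967201-62010000, 2.15-fold and 2.25-fold for chr10:42525601-42545600, and 1.40-fold and 1.75-fold for chr8:43092401-43097600. Fewer reads in shCDK12, as at the median compact region, were seen at chr2:132994801-133045600, the compact region with the most reads (105576, 237874, 81333 and 136819). There shCDK12 had 0.770 times the reads of shNT without OHT and 0.575 times with OHT. The same direction was seen at chr10:42596401-42609600 (0.770 and 0.741), chr20:26188401-26190800 (0.741 and 0.501) and chr1:91852801-91856000 (0.849 and 0.522). The largest fold with OHT of the 15 was at chr18:105201-112400, where reads went from 4068 to 17273 in shNT cells, 4.25-fold, and from 4177 to 12696 in shCDK12 cells, 3.04-fold.

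Unscaled, the order of the conditions was the same at most compact regions. The highest density was in shNT + OHT at 562 of 600 regions and in shCDK12 + OHT at 31. The lowest was in shCDK12 at 421 and in shNT at 166. The full order shNT + OHT, shCDK12 + OHT, shNT, shCDK12 held at 390 regions (65.0%), and at 132 it differed only in that shNT stood below shCDK12. These orders are not corrected for the depth of the libraries. Over the 2061 regions the median log2 change was 1.45 with OHT in shNT cells and 0.98 in shCDK12 cells, −0.25 with silencing (shCDK12 over shNT) without OHT and −0.70 with silencing under OHT, and each comparison below is given relative to that value, as a centred log2 change.

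With OHT in shNT cells, the compact regions lay slightly below the whole set in read density. Their centred median was −0.08 (95% interval −0.10 to −0.05 from order statistics, which covers the spread between regions only), against 0.03 in wide regions, and 377 of 600 lay below 0. Relative to the 2061 regions, 13 compact regions were 1.5-fold or more higher (2.17%) and 24 lower (4.0%), where 0.776% and 1.65% of the 2061 passed. The direction of this median depends on the reference, because centring on the regions of 2 kb or less gives 0.19.

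With OHT in shCDK12 cells, the centred median was 0.00 (−0.03 to 0.04), as in wide regions. This median was 0.32 when centred on the regions of 2 kb or less and −0.13 when scaled to the sum of reads in called autosomal regions, so its sign depends on the scaling. Of the compact regions 23 were 1.5-fold or more higher (3.83%) and 41 lower (6.83%), against a background of 1.46% and 3.54%. The difference between the OHT change in shCDK12 cells and that in shNT cells had a median of 0.07 (0.04 to 0.10) per compact region and of −0.03 per wide region. The median counting error of the log2 change of a single region was 0.064 in shNT and 0.076 in shCDK12 cells.

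In the comparisons of shCDK12 with shNT cells the compact regions lay slightly above the whole set. Without OHT, the centred median of shCDK12 over shNT was 0.05 (0.02 to 0.09), with 35 regions 1.5-fold or more higher (5.83%) and 37 lower (6.17%), against a background of 3.98% and 6.26%. With OHT, the centred median of shCDK12 + OHT over shNT + OHT was 0.10 (0.05 to 0.12) and that of wide regions −0.05. Here 48 compact regions were higher (8.00%) and 37 lower (6.17%), against 4.08% and 8.15% of the 2061. In each comparison the compact regions are part of the 2061 that set the background, and each list enters 2 of the 4 comparisons, so that the changes are tied to each other.

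Counted in reads, not divided by the width in the list, more compact regions passed 1.5-fold. With OHT in shNT cells 10 were higher (1.67%, background 3.15%) and 73 lower (12.2%, background 5.73%), and with OHT in shCDK12 cells 47 higher (7.83%, background 9.56%) and 60 lower (10%, background 5.63%). With silencing 48 were higher (8.00%, background 8.83%) and 90 lower (15%, background 14.3%), and with silencing under OHT 121 higher (20.2%, background 15.4%) and 60 lower (10%, background 13.1%). Reads carry changes of width as well as of level.

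Many of the changes past 1.5-fold in reads per kb, but not the increases with silencing under OHT, lay in regions whose called width differed strongly between lists. Leaving out the 34 regions whose width differed by over 4-fold, a choice made after the data were seen, left 566. Background here means the 2015 regions of the whole set within the same limit. Of the 566, 3 were higher (0.53%, background 0.25%) and 18 lower (3.18%, background 1.39%) with OHT in shNT cells. The counts were 15 (2.65%, background 1.09%) and 20 (3.53%, background 2.53%) with OHT in shCDK12 cells. Silencing gave 26 higher (4.59%, background 3.62%) and 24 lower (4.24%, background 5.71%). Under OHT, silencing gave 48 higher (8.48%, background 4.17%) and 14 lower (2.47%, background 7.10%). Several of the extreme changes per kb were in regions whose width differed by over 4-fold. The lowest with OHT in shCDK12 cells was at chr2:89216001-89224000, with 164, 138, 169 and 276 reads, called over 0.4 kb in the first 3 lists and 8 kb in shCDK12 + OHT. Its centred change with OHT in shCDK12 cells was −4.60 per kb and −0.41 in reads. With OHT in shNT cells, where its width stayed at 0.4 kb, its change of −1.70, the second lowest, was the same in reads.

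At chr9:79176001-79190800 reads were 344, 457, 223 and 440 over 14.8, 1.6, 0.8 and 7.6 kb, and its centred change with OHT in shNT cells was 2.17 per kb but −1.04 in reads. The lowest change with OHT in shNT cells, −3.10, was at chr4:76794801-76837200, where 143, 365, 187 and 1107 reads were counted, and in reads alone it was −0.10. In the difference between the OHT changes, the highest value, 3.09, was at chr12:20701201-20704800 (156, 286, 147 and 184 reads over 0.4, 0.4, 3.6 and 0.4 kb), and the lowest, −5.42, again at chr9:79176001-79190800. The 2 highest changes with silencing under OHT were not of this kind. At chr1:74608001-74612800, called over 4.4 kb in both shNT lists and 4.8 kb in both shCDK12 lists, reads were 330, 789, 472 and 1212 and the centred change was 1.19 (95% Clopper-Pearson interval 1.06 to 1.32, counting error only). At chr8:43092401-43097600, called over 5.2 kb in every list, reads were 3205, 4481, 3591 and 6297 and the change was also 1.19 (1.13 to 1.24).

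Regions whose width differed less were looked at on their own. There were 356 compact regions of 10 kb or more with at least 100 reads in every list whose width differed by at most 1.5-fold. Their centred medians were −0.06 (−0.09 to −0.03) with OHT in shNT cells, 0.04 (0.00 to 0.07) with OHT in shCDK12 cells, 0.08 (0.03 to 0.13) with silencing and 0.14 (0.10 to 0.17) with silencing under OHT. The 991 wide regions with the same limit on width had 0.05, 0.01, −0.02 and −0.06. With silencing under OHT, 23 of the 356 were 1.5-fold or more higher (6.46%) and 3 lower (0.843%), and of the 991 wide ones 24 were higher (2.42%) and 83 lower (8.38%). With OHT alone hardly any of the 356 passed, 1 higher (0.28%) and 2 lower (0.56%) in each cell type. Of the 991 wide ones, 0 were higher and 3 lower (0.30%) in shNT cells, and 1 higher (0.10%) and 8 lower (0.81%) in shCDK12 cells. Width still differed within this limit. With silencing 79 of the 356 were narrower by 1.2-fold or more (22.2%, against 11.4% of the 991). With OHT in shCDK12 cells 57 were wider by 1.2-fold or more (16.0%, against 15.1% of the 991). The limit on width was chosen after the data were seen, and the difference between compact and wide regions was not tested.

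Named within this set after the values were seen, chr11:51567201-51593200 had the highest change with silencing under OHT. It was called with the same limits in all lists and held 3487 reads in shNT and 7481 in shNT + OHT, with 3896 in shCDK12 and 9071 in shCDK12 + OHT. The centred change was 0.98 (95% Clopper-Pearson interval 0.93 to 1.02, counting error only). About as high was chr11:48876801-48900800, with 436, 821, 446 and 1169 reads and 0.97 (0.84 to 1.10). Both lie on chromosome 11. The lowest change was −0.84 (−0.93 to −0.74) at chr9:117744401-117799200, where 1155, 3910, 431 and 1150 reads were counted over 54.8, 48.4, 37.2 and 41.2 kb and the shCDK12 lists held fewer reads than their shNT counterparts with and without OHT.

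In the same set and without OHT, the highest change with silencing was at chr22:18030801-18080000, with 573 reads in shNT and 799 in shCDK12, a centred change of 0.89 (0.73 to 1.05), and with OHT its change was 0.70 (0.61 to 0.79). The lowest was at chr3:152839601-152887200, which had 1733 reads in shNT and 704 in shCDK12, −0.85 (−0.98 to −0.72). With OHT this region had 3453 reads in shNT and 1205 in shCDK12 cells, and the change was −0.42 (−0.51 to −0.32). In both regions the direction was the same with and without OHT.

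Among these 356 regions, the highest change with OHT in shNT cells was at chr6:49491201-49549200, from 575 to 2691 reads and 12.4 to 51.4 reads per kb, a centred change of 0.60 (0.47 to 0.73). In shCDK12 cells its change was 0.53 (0.39 to 0.67), from 515 to 1941 reads. The lowest was at chr6:44387201-44397600, with 265, 303, 282 and 296 reads, where the centred change was −1.02 (−1.26 to −0.77) in shNT and −0.67 (−0.91 to −0.43) in shCDK12 cells. This short region held nearly the same count in every list. In shCDK12 cells the highest change, 0.64 (0.49 to 0.79), was at chr14:59717201-59763200, with 454 reads in shCDK12 and 1832 in shCDK12 + OHT, and in shNT cells it was 0.19 (0.06 to 0.32).

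**Figure D4:**
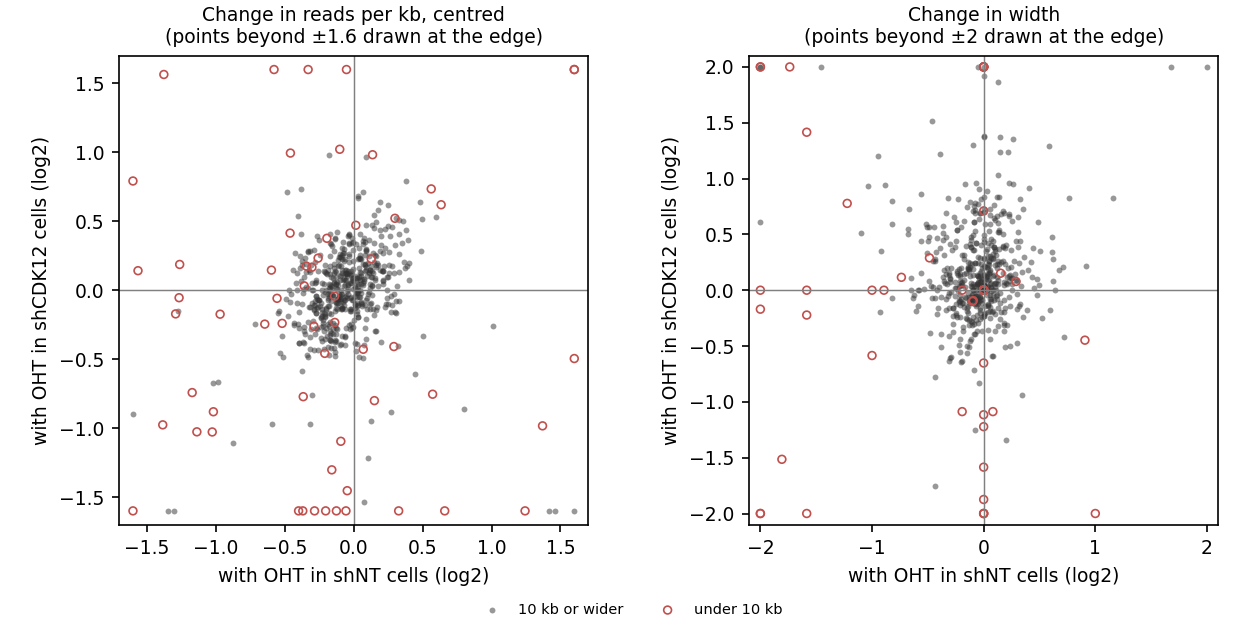
Log2 change with OHT in shNT cells (horizontal) and in shCDK12 cells (vertical) for the 600 compact regions, as centred reads per kb on the left and as called width on the right. Filled points are regions of 10 kb or more, open points those under 10 kb, and 23 regions beyond the axis limits of each panel are drawn at its edge. Most points lie near 0 on the left, and on the right the vertical spread is wider than the horizontal one.

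The levels of compact regions correlated between all pairs of conditions, and their changes less so. Over the 541 regions of 10 kb or more, the Spearman correlation of reads per kb was 0.87 between shNT and shNT + OHT, 0.79 between shCDK12 and shCDK12 + OHT, 0.73 between the lists with OHT and 0.72 between those without. It was 0.70 between shNT + OHT and shCDK12 and lowest, 0.63, between shNT and shCDK12 + OHT. The OHT changes in the 2 cell types, which share no list, had a correlation of 0.31 for reads per kb and of 0.08 for width. By sign, 133 of the 541 were higher with OHT in both cell types relative to the whole set, 187 lower in both, 73 higher in shNT cells alone and 148 higher in shCDK12 cells alone. These are descriptions across regions of the same libraries, and regions are not replicates.

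With OHT the called width of compact regions was on balance slightly lower in shNT cells and higher in shCDK12 cells, the latter as over the whole set. With OHT in shNT cells 318 compact regions became narrower (53.0%, against 48.1% of the 2061), 216 wider and 66 stayed the same. The median log2 change was −0.03 (−0.05 to 0.00), against 0.00 over the 2061, and it was 0.00 with the upper limit at 40 kb. A change of 1.2-fold or more was seen at 55 that widened (9.17%, background 10.4%) and 114 that narrowed (19.0%, background 9.66%). With OHT in shCDK12 cells 351 became wider (58.5%, against 65.6% of the 2061), 203 narrower (33.8%, against 28.9%) and 46 stayed, and the median of 0.07 (0.04 to 0.11) was near the 0.08 of the 2061. Here 189 widened (31.5%, background 30.7%) and 71 narrowed (11.8%, background 5.58%) by at least 1.2-fold. The upper limit of 60 kb on the merged width caps how far a compact region can widen, and the background has no such cap. How much of a faint flank is called depends on library depth, which is not known here, so that the part of depth in these widths cannot be told apart from that of the treatment.

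With silencing and no OHT, 362 compact regions were narrower in shCDK12 than in shNT (60.3%, against 61.2% of the 2061) and 181 wider. The median log2 change was −0.10, against −0.05 over the 2061. At least 1.2-fold narrower were 188 (31.3%, background 24%), and wider 62 (10.3%, background 9.41%). With silencing under OHT the widths balanced, with 278 wider (46.3%, against 51.0% of the 2061), 262 narrower (43.7%, against 42.8%) and a median of 0.00. There 147 were at least 1.2-fold wider (24.5%, background 23.5%) and 114 narrower (19.0%, background 13%).

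At somewhat more regions both limits moved outward or both inward than 1 each way. With silencing and no OHT both limits lay further in at 195 regions and further out at 57, and with OHT in shCDK12 cells both lay further out at 176 and further in at 78. With OHT in shNT cells the numbers were 79 out and 148 in, and with silencing under OHT 129 out and 134 in. At 183, 186, 184 and 165 regions, for OHT in shNT cells, OHT in shCDK12 cells, silencing and silencing under OHT, 1 limit lay further out and the other further in. The moves were small, with medians of 1.6 to 2.8 kb, a few windows of 400 bp. A limit moved by over 10 kb at 49 of 1200 limits with OHT in shNT cells, 99 with OHT in shCDK12 cells, 102 with silencing and 89 with silencing under OHT. Moves of limits were counted in the compact regions only. In called width, 61.2% of the 2061 regions were narrower with silencing and 65.6% wider with OHT in shCDK12 cells. The lean in these 2 comparisons is thus not particular to compact regions.

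The 59 regions under 10 kb had lower changes in reads with OHT than the longer ones, as did the regions of 2 kb or less outside the compact set. Relative to the whole set, their reads (not divided by width) had a median centred change of −0.56 with OHT in shNT cells, with 54 of 59 below 0, and of −0.52 in shCDK12 cells, with 49 below 0. In the regions of 10 kb or more these medians were −0.09 and 0.04, and in the 54 regions of 2 kb or less −0.31 and −0.48, each with 52 of 54 below 0. With silencing under OHT the short regions had 0.47, with 43 of 59 above 0, and the regions of 10 kb or more had 0.08. The regions of 2 kb or less went the other way here, with −0.11 and 36 of 54 below 0. Of the 59, 9 are among the 15 regions of very high density, and some were called as few windows. The share of each in these values was not tested.

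Compact regions were spaced more widely than wide ones. The distance from a compact region to the nearest merged region of any list had a median of 50.6 kb, with quartiles of 16.3 and 136.2 kb, that from a wide region 33.6 kb and that over all merged regions 44 kb. For the regions of 2 kb or less it was 423.4 kb, and among the compact ones it was 120.4 kb for those under 10 kb and 49.6 kb for the rest. A neighbour lay within 100 kb of 408 compact regions (68.0%), where 79.2% of the wide ones and 71.7% of all merged regions had one. Farther than 1 Mb from any other were 23 compact regions (3.83%) and 21 wide ones (1.49%), and 2.72% of all merged regions.

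**Figure D5:**
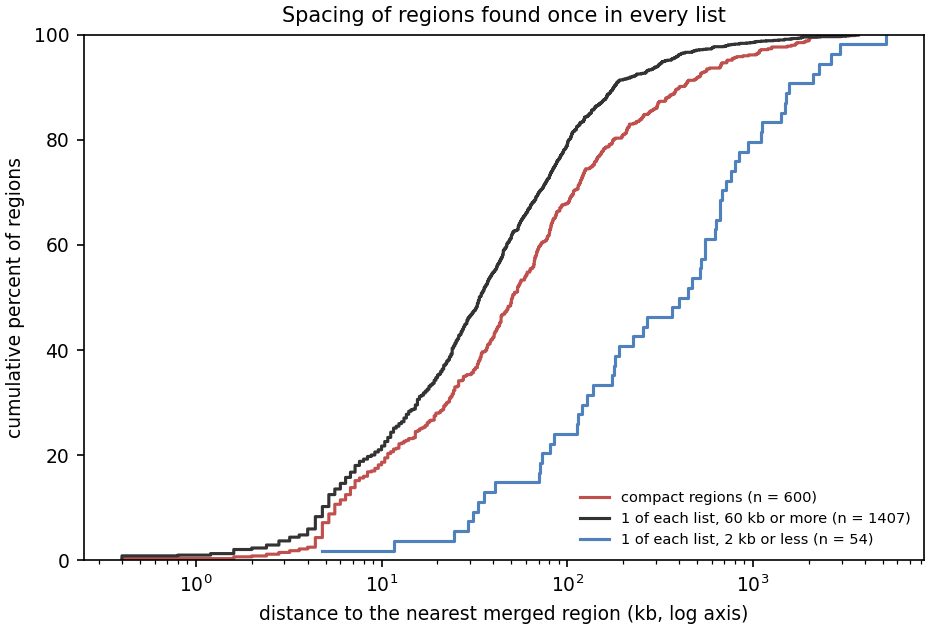
Cumulative percent of regions by distance in kb (log axis) to the nearest merged region, for the 600 compact regions, the 1407 of 60 kb or more and the 54 of 2 kb or less, all found exactly once in each list. The curve of the compact regions (median 50.6 kb) lies between those of the wide (33.6 kb) and the narrow ones (423.4 kb).

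The neighbour of a compact region was often a region that was missing in at least 1 condition. This was so for 234 of 600 (39.0%), close to the 40.0% that such regions make up of all merged regions. The neighbour was a wide region at 159 (26.5%), another compact region at 111 (18.5%), a region split in some list at 92 (15.3%) and one of 2 kb or less at 4. Compact regions were 12.3% of all merged regions. The neighbour was wider than the compact region itself at 405 (67.5%), against 48.7% over the 2061 and 38.7% for wide regions. The limit of 60 kb on a compact region favours a wider neighbour, so this share is only a description. The median width of the neighbour was 57.8 kb, against 76.8 kb over the 2061 and 89.6 kb for wide regions.

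Some compact regions were separated from a neighbour by a single window. The gap was 0.4 kb at chr13:113911601-113964800, with 1106, 3633, 892 and 2303 reads, and at chr2:208162401-208215200, with 974, 3045, 355 and 1241 reads over 52.8, 46.8, 30 and 46 kb. Such a gap can lie only between regions of different lists, since the shortest gap within a list was 4.4 kb. A gap under 10 kb was found at 109 compact regions (18.2%, against 19.6% of all merged regions). At the other extreme, chr19:24183201-24186400 was 3545.2 kb from the nearest region, with 800, 1656, 593 and 854 reads. The next most isolated was chr8:56742801-56797600, 2862.4 kb away, which grew from 4.4 kb in shNT and 3.2 kb in shNT + OHT up to 19.2 kb in shCDK12 and 54.8 kb in shCDK12 + OHT, with 207, 424, 367 and 1478 reads.

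Within a list, the median distance from a compact region to the next region of the same list was 88.4 kb in shNT and 74.2 kb in shNT + OHT, with 81.6 kb in shCDK12 and 67.0 kb in shCDK12 + OHT. The wide regions had 74.4, 56.4, 66.8 and 46.4 kb. In both sets the order of the conditions was the same, with the largest distances in shNT and the smallest in shCDK12 + OHT. Compact regions of 10 kb or more with a neighbour within 100 kb (382) had a centred density change with silencing without OHT of 0.09 in the median, and the 159 farther from any other −0.04.

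Compact regions were found on all 22 autosomes, from 7 on chromosome 19 to 59 on chromosome 2. They made up 5.74% of the merged regions of chromosome 19 and 16.7% of those of chromosome 9. The small changes in density had the same direction on most chromosomes in 2 of the comparisons. With OHT in shNT cells the centred median of the compact regions was below 0 on 19 of 22 chromosomes and above on 3, and with silencing under OHT it was above 0 on 19 and below on 3. With OHT in shCDK12 cells and with silencing without OHT it was above 0 on 12 and below on 10. The chromosomes share the same lists and the same centring value, so they are no independent check. The direction with OHT in shNT cells also depends on the reference, since the median over all compact regions reversed when centred on the regions of 2 kb or less. For width, the median was above 0 on 18 and below on none with OHT in shCDK12 cells, and below 0 on 19 and above on 1 with silencing. On chromosome 19, the count of 7 gives little precision to any such median.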

How the data were processed

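All values derive from 4 deposited region lists, which the authors made from the merged replicates of each condition. Each region has a deposited count of reads, whole and not scaled to library size, and the deposited score is the authors' own value per region, used only as a common minimum of 146 in an alternative. The submitters' processing notes name BWA 0.6.2, SAMtools and SICER and the builds hg19 and mm10, with no role given. Limits lie on windows of 400 bp. Coordinates are printed counted from 1. The lists do not match the lengths of hg38, the build at hand, so genes and sequences were not analysed here.

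Regions of the 4 lists were merged where they overlapped or touched. Reads per kb used each list's own width, and changes were centred on the median of 2061 autosomal regions found exactly once in every list. Intervals of medians are 95% binomial order-statistic intervals over regions. Intervals of single changes are exact Clopper-Pearson intervals, which cover counting error only. No test was run, because there is 1 list per condition. Regions were named by extremes of level, width, change and spacing among members (for changes, with at least 100 reads in every list), the members nearest the medians and the width limits, and those with the same limits in all lists. The regions in the set limited to a 1.5-fold difference in width and of very high density were named after their values were seen. The members and the lists compared were chosen with earlier results of these data known. The functions were tested on simulated lists. Computations ran in Python 3.11.15 with pandas 2.3.3, numpy 2.4.6, matplotlib 3.10.9 and scipy 1.17.1.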

Additional observations from a re-analysis of the deposited data

Results flagged for a closer look

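The median change in the called width of the compact regions with OHT had opposite signs in the 2 cell types, which is why it is listed here. On the log2 scale it was −0.03 (−0.05 to 0.00) in shNT cells and 0.07 (0.04 to 0.11) in shCDK12 cells, against 0.00 and 0.08 over all 2061 regions, and in shNT cells it was 0.00 with the upper limit at 40 kb. The difference was 0.103, which was not tested because there is 1 list per cell type and treatment.

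Chromosome X lay outside the autosomes on which the compact regions were defined. Of its 97 merged regions, 13 met the same rule, with a median width of 46.4 kb and median densities of 18.8 reads per kb in shNT and 55.8 in shNT + OHT, with 15.5 in shCDK12 and 27.9 in shCDK12 + OHT.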

How the results depend on the processing

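No paired analysis was possible because the lists hold 1 merged list per condition, and leaving out a replicate was not possible for the same reason. Across the alternatives 187 of the main values stayed within the spread or within 1.5 times of the value reported, 36 moved and 1 reversed. Main values are the number, width, density and spacing of the compact regions and their median changes between conditions. Of the counts of compact regions past a fold limit, 174 stayed and 50 moved. Centred on the regions of 2 kb or less, the median changes in reads per kb were 0.19 with OHT in shNT cells (reversed from −0.08), 0.32 with OHT in shCDK12 cells, 0.013 with silencing and 0.16 with silencing under OHT, and the difference of the OHT changes was 0.12. Scaled to the sum of reads in called autosomal regions, which is no library total, they were −0.16, −0.13, 0.18, 0.21 and 0.024. With the upper limit at 40 kb, 230 regions remained, with a median width of 26.0 kb, densities of 23.7, 62.8, 21.4 and 41.3 reads per kb in shNT, shNT + OHT, shCDK12 and shCDK12 + OHT, changes in density of −0.14 with OHT in shNT cells, 0.12 with silencing, 0.15 with silencing under OHT and 0.12 in the difference, and changes in width of 0.024 with OHT in shCDK12 cells and 0.00 with silencing. With the lower limit at 10 kb the densities were 19.5, 51.4, 16.8 and 32.8. With a common minimum score they were 22.5, 60.1, 19.7 and 37.8, the density change with silencing was 0.089, and the width changes were 0.036 with OHT in shCDK12 cells and −0.058 with silencing. Per kb of merged width the change with OHT in shNT cells was −0.11. Joining regions up to 10 kb apart gave a spacing of 70.0 kb, and distances within a list were 67.0 kb (shCDK12 + OHT) to 88.4 kb (shNT). A limit of 0.32 on the log2 scale in place of 0.58 gave 36 higher and 89 lower with OHT in shNT cells, 77 and 92 with OHT in shCDK12 cells, 130 and 95 with silencing, and 148 and 83 with silencing under OHT. Per kb of merged width 73 in place of 24 were 1.5-fold lower with OHT in shNT cells, 47 in place of 23 higher with OHT in shCDK12 cells, 90 in place of 37 lower with silencing, and 121 and 60 in place of 48 and 37 higher and lower with silencing under OHT. The causes were not tested. Library depth is not known, regions share libraries, and short called widths limit reads per kb.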
